A study of Homo sapiens with 36 samples.

Results

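The integrated stress response was followed at the level of mRNA in 10 genes, ATF4 and 9 genes that act with it or below it, namely DDIT3, ATF3, ATF5, NUPR1, TRIB3, CHAC1, DDIT4, SESN2 and EIF4EBP1. The genes were chosen by name as regulators of this response, with earlier results of these data known. All 10 were found among the 57820 genes of the count table. RNA-seq covered 12 conditions of A2780, a line of human ovarian cancer cells, with 3 libraries for each and 36 in all. There were 3 kinds of cell: parental cells sensitive to platinum (wt), their derivatives made resistant by long exposure to cisplatin (cis), and survivors selected from the latter by growth in medium lacking both amino acids (cis SSP). Each was kept in complete medium or in one free of serine and glycine (-SG), either untreated or given carboplatin (carbo). Each of the cell types is a single line and the cis SSP cells descend from the cis cells, so that a difference between lines is that between these cultures. The dialyzed serum of the home-made medium and the glutamine it contained were shared by all deprived cells. The methods do not say whether cells in complete medium had this home-made medium or the usual one with ordinary serum. If they had the latter, loss of both amino acids and the change of medium and serum cannot be told apart. The labels write the carboplatin dose as 6 M, a unit that cannot be meant as written. The study's legends speak of technical replicates, so the p-values below measure the spread between libraries of 1 condition and may not cover that between independent cultures.

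Cells that lack an amino acid, load their endoplasmic reticulum with unfolded protein or lack haem activate kinases that phosphorylate the translation factor eIF2. General translation then falls, while the mRNA of ATF4, a basic leucine zipper (bZIP) transcription factor, is translated better because of short reading frames ahead of its coding sequence. ATF4 protein raises transcription of genes for amino acid synthesis, uptake and tRNA charging, and of further regulators such as those described here, and several of these genes are also known to respond to p53 or to other stress pathways. RNA-seq reads the mRNA only, so the translation of ATF4 was not measured.

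The comparisons ask how carboplatin changed the 10 mRNAs, how serine/glycine deprivation changed them and whether both treatments changed them alike. Levels are given as CPM, a gene's counts relative to the library's total on genes, scaled by TMM factors, always for the 3 libraries of a condition, and differences as log2 fold changes with their standard errors (SE) and adjusted p-values from edgeR's quasi-likelihood test over all genes. A gene was called at an adjusted p-value under 0.05. In short, deprivation raised all 10 mRNAs in cis cells and 7 of them in wt cells. Of all genes 37.6% and 24% were called higher in these comparisons. Carboplatin raised 5 and lowered 4 in wt cells, with 38.9% of all genes called higher and 39% lower. In cis cells it raised 6 and lowered 1, against 9.27% and 10.8% of all genes. In a direct comparison of both treatments, all 10 were lower with carboplatin than under deprivation in cis cells, and 7 of 10 in wt cells. Of all genes 36.7% and 38.2% were called lower there.

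ATF4 binds, with C/EBP partners, to a composite element whose core reads TGATGCAA, and these letters were searched on both strands within 500 bases of the annotated start of each gene on GRCh37. They were found in 304 of 19870 protein-coding genes (1.53%) and in 4 of the 8 genes of this set that were read out, at 7 positions. The 30 bases around each match are shown, because ATF4 is known to act on its target genes through elements of this kind, with the core in capitals and the letters read along the strand of the gene.
DDIT3, 306 bases ahead of the start, chr12:57914585-57914614, minus strand: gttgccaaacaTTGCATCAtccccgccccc
ATF3, 203 bases ahead of the start, chr1:212781889-212781918, plus strand: cctccccgaacTTGCATCAccagtgccccc
ATF3, 21 bases ahead of the start, chr1:212782071-212782100, plus strand: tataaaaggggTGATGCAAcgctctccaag
CHAC1, 209 bases ahead of the start, chr15:41245449-41245478, plus strand: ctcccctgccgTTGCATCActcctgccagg
TRIB3, 132 bases past the start, chr20:361525-361554, plus strand: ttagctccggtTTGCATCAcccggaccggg
In TRIB3 the same 30 letters recurred 165 and 198 bases past the start, at chr20:361558-361587 and chr20:361591-361620, all in the 5′ untranslated exon. No match lay in the window of ATF4, DDIT4, SESN2 or ATF5, and the windows of EIF4EBP1 and NUPR1 were not read out. A match is a description of the letters and does not show that a factor was bound in these cells.

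The libraries held 13074937 to 20441582 counts on genes, and the lowest count of any of the 10 genes in a library was 24, for ATF3. Of 9 markers of ovarian epithelium, 6 (PAX8, EPCAM, KRT7, CDH1, WT1 and MUC16) stayed at or under 1.67 CPM in every condition mean, whereas KRT8 reached 6.16 CPM, KRT18 41.5 CPM and PAX2 ranged from 0 to 195 CPM. Of 5 mesenchymal markers vimentin (VIM) was at 1580 to 4200 CPM and FN1 at or under 2.73 CPM, while CDH2 (10.1 to 1250 CPM), COL1A1 (1.88 to 954 CPM) and DCN (0.226 to 24.7 CPM) varied between conditions. Of the leukocyte markers, CD3E was at 0 counts in all 36 libraries and PTPRC in 31. CD14 was at 0 counts in only 5 libraries, with condition means of 0.0382 to 0.174 CPM. The endothelial marker VWF was at 0 counts in 12 libraries, with condition means of 0 to 0.266 CPM. Library 25, labelled cis SSP, and library 32, labelled cis SSP -SG, stood apart from the other libraries of their conditions, with a median absolute log2 difference over genes of 0.43 in both from the mean of the other 2 libraries, whereas this value was 0.044 to 0.23 in the other 34 libraries. The results in cis SSP cells are therefore given with and without these libraries. The exons of DDIT3 overlap those of MARS1 and MBD6, and the exons of ATF5 those of NUP62 and IL4I1, on opposite strands. Since the strand setting of the counting was not stated, reads of these neighbours may have been counted in or left out with DDIT3 and ATF5.

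**Figure D1:**
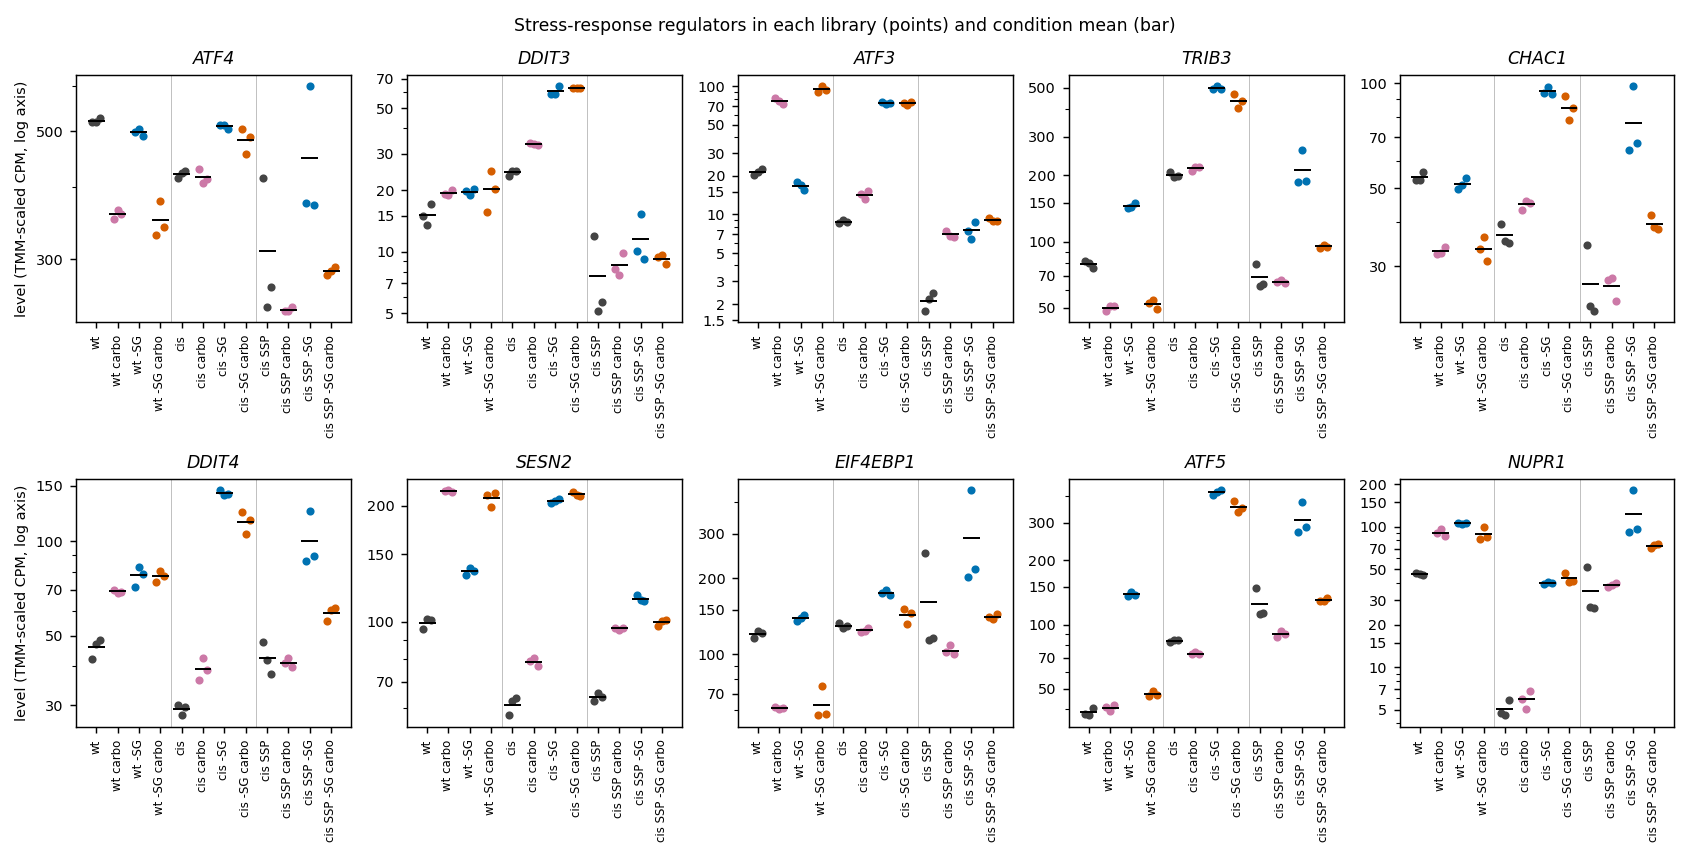
Level of each gene (TMM-scaled CPM, log axis, scaled per panel) in the 36 libraries, by condition, with the 3 libraries of a condition as points and their mean as a bar; grey lines part wt, cis and cis SSP cells. ATF3 spans from 2.13 CPM in cis SSP to 94.8 CPM in wt -SG carbo. Libraries 25 and 32 lie above the other libraries of their conditions for all genes but ATF3 and SESN2.

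ATF4 mRNA itself fell with carboplatin in wt cells and rose under deprivation in cis cells. In wt cells it was at 519, 520.3 and 527 CPM in complete medium, 352, 366 and 359.7 CPM with carboplatin and 499.7, 505 and 491 CPM without serine and glycine. The carboplatin libraries lay below all others, which gave a log2 fold change of -0.53 (SE 0.0193, adjusted p = 3.96e-118 by edgeR), while deprivation lowered it by far less, with -0.065 (SE 0.0215, adjusted p = 0.0168). In cis cells it was at 415, 423 and 427 CPM in complete medium, 429.8, 407 and 414 CPM with carboplatin and 513, 513 and 505 CPM under deprivation. Carboplatin and control libraries overlapped, with a log2 fold change of -0.0044 (SE 0.0261, adjusted p = 0.93 by edgeR), and deprivation raised it by 0.34 (SE 0.0268, adjusted p = 1.81e-15). Over the 12 conditions the highest mean was 2.13 times the lowest, the smallest range of the 10 genes, and 8 of the 11 neighbouring pairs in the order of levels overlapped between libraries.

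ATF3, a bZIP factor of the ATF/CREB family that is induced by many stresses, moved in opposite directions with both treatments in wt cells. In wt cells the libraries were at 20.4, 21.4 and 22.7 CPM in complete medium, 80.8, 76.03 and 72.5 CPM with carboplatin and 17.8, 16.8 and 15.4 CPM under deprivation. Carboplatin raised it 3.57-fold (log2 fold change 1.84, SE 0.0473, adjusted p = 7.04e-183 by edgeR), and deprivation lowered it (-0.36, SE 0.0708, adjusted p = 0.000264). In cis cells the order was turned, with 8.60, 9.03 and 8.79 CPM in complete medium, 14.4, 13.1 and 15.3 CPM with carboplatin and 74.9, 73.1 and 74.1 CPM under deprivation. Both treatments raised it there, carboplatin by 0.71 (SE 0.0896, adjusted p = 8.83e-07 by edgeR) and deprivation by 3.13 on the log2 scale (SE 0.0599, adjusted p = 5.13e-39). The condition means ranged 44.5-fold, and the lowest of them was that of cis SSP cells in complete medium, at 1.76, 2.17 and 2.46 CPM.

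DDIT3 encodes CHOP, a bZIP factor of the C/EBP family known to promote cell death under lasting stress. It was at 14.9, 13.5 and 17.01 CPM in wt cells, 19.2, 18.9 and 19.96 CPM with carboplatin and 19.8, 18.9 and 20.3 CPM under deprivation. Both treatments raised it, with log2 fold changes of 0.35 (SE 0.0712, adjusted p = 1.44e-06 by edgeR) and 0.37 (SE 0.0794, adjusted p = 0.000612), and the direct comparison of both gave -0.0099 (SE 0.0670, adjusted p = 0.898). In cis cells it was at 23.5, 24.7 and 24.9 CPM, 33.98, 33.6 and 33.1 CPM with carboplatin and 58.9, 58.5 and 64.5 CPM under deprivation, so that the 3 conditions did not overlap. The log2 fold changes were 0.47 (SE 0.0577, adjusted p = 5.18e-07 by edgeR) with carboplatin and 1.38 (SE 0.0531, adjusted p = 5.04e-27) without serine and glycine. MARS1, the methionyl-tRNA synthetase gene that overlaps it on the other strand, changed by -0.57 with carboplatin in wt cells and by 0.34 under deprivation in cis cells, and the part of its reads in the DDIT3 counts was not tested.

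ATF5, a bZIP factor close to ATF4 that is known for its role in the mitochondrial stress response, rose under deprivation in both wt and cis cells and was not called higher with carboplatin in either. In wt cells it was at 38.1, 37.4 and 40.5 CPM, 41.2, 39.2 and 41.7 CPM with carboplatin and 136, 142 and 138 CPM under deprivation. The control and carboplatin libraries overlapped (log2 fold change 0.080, SE 0.0478, adjusted p = 0.116 by edgeR), whereas deprivation raised it 3.58-fold (1.84, SE 0.0393, adjusted p = 3.33e-18). In cis cells it was at 82.8, 84.3 and 84.6 CPM, 72.4, 73.96 and 72.9 CPM with carboplatin and 406, 417 and 427 CPM under deprivation. Here carboplatin lowered it slightly (-0.19, SE 0.0381, adjusted p = 0.000533 by edgeR) and deprivation raised it by 2.37 on the log2 scale (SE 0.0320, adjusted p = 2.96e-45). NUP62, a nuclear pore gene that shares exonic sequence with ATF5 on the other strand, fell by 0.89 on the log2 scale under deprivation in cis cells and by 0.24 in wt cells, opposite to ATF5.

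NUPR1, a small nuclear protein induced by stress, differed widely between the lines. It was at 46.6, 46.5 and 45.6 CPM in wt cells, 90.5, 95.9 and 86.6 CPM with carboplatin and 106, 105 and 107 CPM under deprivation, and both treatments raised it, by 0.98 (SE 0.0381, adjusted p = 1.04e-106 by edgeR) and by 1.20 (SE 0.0368, adjusted p = 1.03e-15). In untreated cis cells it was at only 4.76, 4.54 and 5.89 CPM, 9.22-fold lower than in wt cells (log2 fold change -3.21, SE 0.0770, adjusted p = 8.62e-35 by edgeR). Carboplatin left it at 5.96, 5.07 and 6.76 CPM, which was not called (0.25, SE 0.136, adjusted p = 0.217 by edgeR), and deprivation brought it to 39.4, 40.4 and 40.03 CPM (3.04, SE 0.0807, adjusted p = 2.14e-33). Deprived cis cells thus stayed below untreated wt cells.

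TRIB3, a pseudokinase that binds ATF4 and CHOP and damps the response, and CHAC1, an enzyme that degrades glutathione, were lowered by carboplatin in wt cells. TRIB3 was at 81.3, 79.8 and 75.4 CPM in wt cells, 48.2, 50.7 and 51.1 CPM with carboplatin and 142, 143 and 150.3 CPM under deprivation. The groups lay on either side of the control, with log2 fold changes of -0.65 (SE 0.0387, adjusted p = 8.77e-54 by edgeR) for carboplatin and 0.88 (SE 0.0363, adjusted p = 1.03e-13) for deprivation. In cis cells TRIB3 was at 208, 196 and 199.6 CPM, 209, 219 and 218 CPM with carboplatin and 494, 511 and 495 CPM under deprivation. Deprivation raised it 2.59-fold there (adjusted p = 3.31e-37 by edgeR), and carboplatin by 0.11 on the log2 scale (SE 0.0307, adjusted p = 0.0122), a change of 1.08-fold. CHAC1 was at 52.9, 52.8 and 55.8 CPM in wt cells, 32.5, 32.8 and 34.1 CPM with carboplatin and 49.9, 51.2 and 53.7 CPM under deprivation. Carboplatin lowered it (-0.70, SE 0.0465, adjusted p = 3.14e-44 by edgeR), and deprivation did not pass the test (-0.064, SE 0.0443, adjusted p = 0.249). In cis cells CHAC1 was at 39.7, 35.5 and 34.9 CPM, 43.5, 46.05 and 45.5 CPM with carboplatin and 93.8, 97.7 and 93.4 CPM under deprivation, and both treatments raised it, by 0.31 (SE 0.0546, adjusted p = 0.000128 by edgeR) and 1.44 (SE 0.0457, adjusted p = 2.43e-30).

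The remaining genes restrain the growth kinase complex mTORC1 or translation below it. SESN2, a sestrin that senses leucine and inhibits mTORC1, and DDIT4 (REDD1), which inhibits mTORC1 through the TSC complex, are also known to be induced by p53, and both rose with either treatment in wt and cis cells. SESN2 was at 95.7, 102 and 101 CPM in wt cells, 219, 219.7 and 217 CPM with carboplatin and 133, 138 and 136 CPM under deprivation. Carboplatin had the larger effect here, with log2 fold changes of 1.14 (SE 0.0267, adjusted p = 1.98e-208 by edgeR) against 0.44 (SE 0.0333, adjusted p = 8.43e-10), and the direct comparison gave 0.70 (adjusted p = 6.98e-17). In cis cells SESN2 was at 57.2, 62.4 and 63.5 CPM, 79.3, 80.5 and 76.9 CPM with carboplatin and 204, 206 and 208 CPM under deprivation, and here deprivation had the larger effect (1.81, SE 0.0362) than carboplatin (0.38, SE 0.0431), with a direct comparison of -1.44 (adjusted p = 3.28e-25 by edgeR).

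DDIT4 was at 42.01, 47.1 and 48.5 CPM in wt cells, 70.1, 68.5 and 68.9 CPM with carboplatin and 71.5, 82.8 and 78.9 CPM under deprivation. The log2 fold changes were 0.60 (SE 0.0407, adjusted p = 2.26e-42 by edgeR) and 0.76 (SE 0.0628, adjusted p = 1e-06). In cis cells it was at 30.2, 27.8 and 29.6 CPM, 36.2, 42.6 and 38.95 CPM with carboplatin and 145, 140.2 and 141 CPM under deprivation, where it had its highest mean of all conditions and had risen 5.09-fold (log2 fold change 2.35, SE 0.0424, adjusted p = 5.56e-40 by edgeR). EIF4EBP1 encodes 4E-BP1, which binds the cap-binding factor eIF4E and is released from it by mTORC1. It was at 116, 124 and 122 CPM in wt cells, 62.01, 61.03 and 61.1 CPM with carboplatin and 136, 139 and 142 CPM under deprivation. Carboplatin lowered it 1.95-fold (-0.97, SE 0.0333, adjusted p = 2.27e-126 by edgeR), and deprivation raised it by 0.21 (SE 0.0332, adjusted p = 2.61e-05). In cis cells it was at 133, 128 and 129 CPM, 122, 124 and 127 CPM with carboplatin and 174, 179 and 171 CPM under deprivation, and of these treatments deprivation alone passed the test (0.49, SE 0.0322, adjusted p = 2.45e-18 by edgeR).

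**Figure D2:**
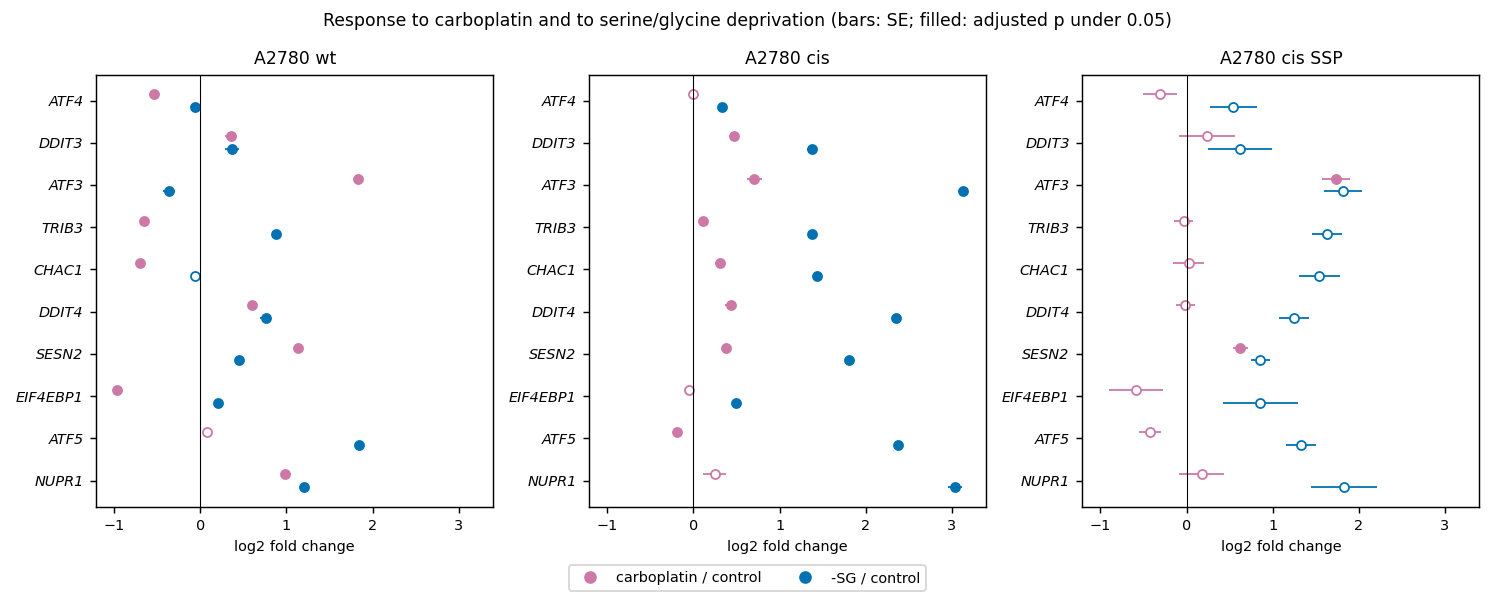
Log2 fold change of each gene (x axis) with carboplatin and under serine/glycine deprivation against complete medium without drug, in wt, cis and cis SSP cells; points are estimates from 3 libraries a condition, bars their SE and filled points adjusted p-values under 0.05. In cis cells all 10 deprivation values lie to the right of the carboplatin values, whereas in wt cells ATF3 is at 1.84 with carboplatin and -0.36 under deprivation.

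Counted together, carboplatin in wt cells raised 5 of the 10 genes (ATF3, SESN2, NUPR1, DDIT4 and DDIT3) and lowered 4 (EIF4EBP1, CHAC1, TRIB3 and ATF4). Such calls were frequent in this comparison, with 77.8% of all tested genes called, 38.9% of them higher and 39% lower, so the count of called genes says little by itself, and the size of the changes is of more use. The median log2 fold change of the 10 genes was 0.22, against -0.00070 over all genes. Under deprivation 7 of the 10 genes rose in wt cells and 2 fell (ATF4 and ATF3), with 49.1% of all genes called (24% higher and 25.1% lower) and a median of 0.41. In the direct comparison in wt cells, 7 genes were lower with carboplatin and 2 higher (ATF3 and SESN2), with 75.8% of all genes called (37.6% higher and 38.2% lower). The widest differences were those of ATF3 (2.20, SE 0.0562), ATF5 (-1.76, SE 0.0387), TRIB3 (-1.53, SE 0.0387) and EIF4EBP1 (-1.17, SE 0.0354).

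In cis cells carboplatin raised 6 genes and lowered 1 (ATF5), with 20.1% of all genes called (9.27% higher and 10.8% lower), and none of the changes reached 1 on the log2 scale. In 1 fit over the 36 libraries only ATF3, DDIT4 and SESN2 of these 7 were called, and 401 of all genes in place of 2702. Deprivation raised 10 of 10, where 37.6% of all genes were called higher and 75% in either direction. The median of the 10 genes was 1.62 against 0.012 over all genes. Of the 10 genes 8 changed by at least 1, all but ATF4 and EIF4EBP1. The share of all genes that changed by at least 1 was not counted, so this number cannot be set against it. In the direct comparison 10 of 10 were lower with carboplatin, while 36.7% of all genes were called lower, 36.6% higher and 73.3% in either direction. The differences ran from -0.35 (SE 0.0242, adjusted p = 1.28e-13 by edgeR) for ATF4 to -2.80 (SE 0.0780, adjusted p = 6.78e-23) for NUPR1. The comparisons of carboplatin and of deprivation with control share their control libraries and are given side by side for that reason. The direct comparison uses no control libraries.

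Whether the lines answered differently was tested as an interaction. The response to deprivation was larger in cis than in wt cells for 10 of 10 genes, with 27.1% of all genes called in this direction and 54% in either. The difference of the log2 fold changes was widest for ATF3, at 3.51 (SE 0.0909, adjusted p = 1.71e-27 by edgeR), followed by NUPR1 (1.85, SE 0.0881), DDIT4 (1.60, SE 0.0747) and CHAC1 (1.52, SE 0.0653). It was smallest for EIF4EBP1 (0.30, SE 0.0454, adjusted p = 6.84e-07 by edgeR). The response to carboplatin differed for 8 genes, with 57.6% of all genes called. It was higher in cis cells for ATF4, TRIB3, CHAC1 and EIF4EBP1, the genes that carboplatin had lowered in wt cells, at 0.54 (SE 0.0328) to 1.01 (SE 0.0705). It was lower for ATF3 (-1.12, SE 0.106, adjusted p = 5.17e-14 by edgeR), SESN2 (-0.76, SE 0.0491), NUPR1 (-0.73, SE 0.133) and ATF5 (-0.26, SE 0.0602). DDIT3 and DDIT4 did not pass this test, with differences of 0.12 (SE 0.0940, adjusted p = 0.27 by edgeR) and -0.16 (SE 0.0755, adjusted p = 0.0656).

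The lines also differed before any treatment. In complete medium without drug 10 of 10 genes were called between cis and wt cells, with 78.5% of all genes called (39.4% higher and 39.1% lower in cis cells). TRIB3 (1.33, SE 0.0324), ATF5 (1.097, SE 0.0422), DDIT3 (0.66, SE 0.0723) and EIF4EBP1 (0.089, SE 0.0318) were higher in cis cells. NUPR1, ATF3 (-1.31, SE 0.0796), SESN2 (-0.72, SE 0.0394), DDIT4 (-0.67, SE 0.0551), CHAC1 (-0.58, SE 0.0496) and ATF4 (-0.33, SE 0.0230) were lower. The genes with the lowest starting levels in cis cells, NUPR1 and ATF3, were those with the largest fold changes under deprivation. The starting level is the divisor of that fold change and comes from the same libraries, so a link between them was not tested. The deprived levels of NUPR1 and ATF3 were 39.9 ± 0.540 CPM and 74.1 ± 0.912 CPM (mean ± SD, n = 3).

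Deprivation and carboplatin were also combined. In wt cells carboplatin added to deprivation lowered 6 of 10 genes and raised 2 (ATF3 and SESN2), with 68.9% of all genes called (34.3% higher and 34.6% lower). ATF5 was at 46.1, 48.9 and 46.5 CPM with both treatments, close to the 40.7 ± 1.34 CPM (mean ± SD, n = 3) of carboplatin alone and far below the 139 ± 3.35 CPM of deprivation alone. TRIB3 behaved alike, at 52.3, 54.4 and 49.4 CPM. In these genes the level with both treatments lay near that of carboplatin, and the effect of the drug was more negative in deprived than in complete medium, with an interaction of -1.64 (SE 0.0678, adjusted p = 1.59e-10 by edgeR) for ATF5 and -0.83 (SE 0.0682, adjusted p = 4.59e-07) for TRIB3. The effect of the drug was also lower in deprived medium for NUPR1 (-1.24, SE 0.0816), DDIT4 (-0.61, SE 0.0842) and SESN2 (-0.52, SE 0.0618), and that on ATF3 was higher (0.66, SE 0.0920, adjusted p = 6.21e-05 by edgeR), with 90.1, 101 and 93.7 CPM under both treatments, its highest mean in any condition. In all 6 of 10 genes had a called interaction, against 27.7% of all genes. With single libraries left out in turn, 6 to 8 genes had a called interaction. Library 11, of wt cells with both treatments, stood further from its condition than any other library outside the cis SSP cells (0.16 on the log2 scale). Without it DDIT3 turned its sign in the comparison of both treatments with deprivation alone, uncalled with and without this library.

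In cis cells with both treatments ATF3 was at 73.4, 71.9 and 74.9 CPM, against 74.9, 73.1 and 74.1 CPM with deprivation alone, and DDIT3 at 63.2, 62.9 and 62.9 CPM. Of the 10 genes 4 were lowered (TRIB3, DDIT4, EIF4EBP1 and ATF5), with -0.19 to -0.29 on the log2 scale and none was raised, with 22.4% of all genes called (10.9% higher and 11.4% lower, or 13.1% and 8.52% when scaled by total counts). The drug's effect was smaller or more negative in deprived medium for 7 genes, with 12.1% of all genes called in this interaction (5.91% positive and 6.17% negative, or 7.54% and 4.63% with total counts). It was widest for DDIT4 (-0.72, SE 0.0837, adjusted p = 9.55e-06 by edgeR) and ATF3 (-0.71, SE 0.0873, adjusted p = 3.92e-06). Libraries 23 and 24, of cis cells with both treatments, had up to 17.9% of their counts outside any gene, against at most 9.31% in the other libraries. Without both, DDIT4, EIF4EBP1 and ATF5 were still called lower, TRIB3 was not (-0.080, adjusted p = 0.1 by edgeR) and NUPR1 was called higher (0.25, SE 0.0665, adjusted p = 0.0038), with 14.5% of all genes called, and 7 genes had a called medium interaction, with 8.74% of all genes called. The call of TRIB3 was also lost when library 20, 21 or 24 alone was left out, and in 1 fit over the 36 libraries none of the 4 was called.

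**Figure D3:**
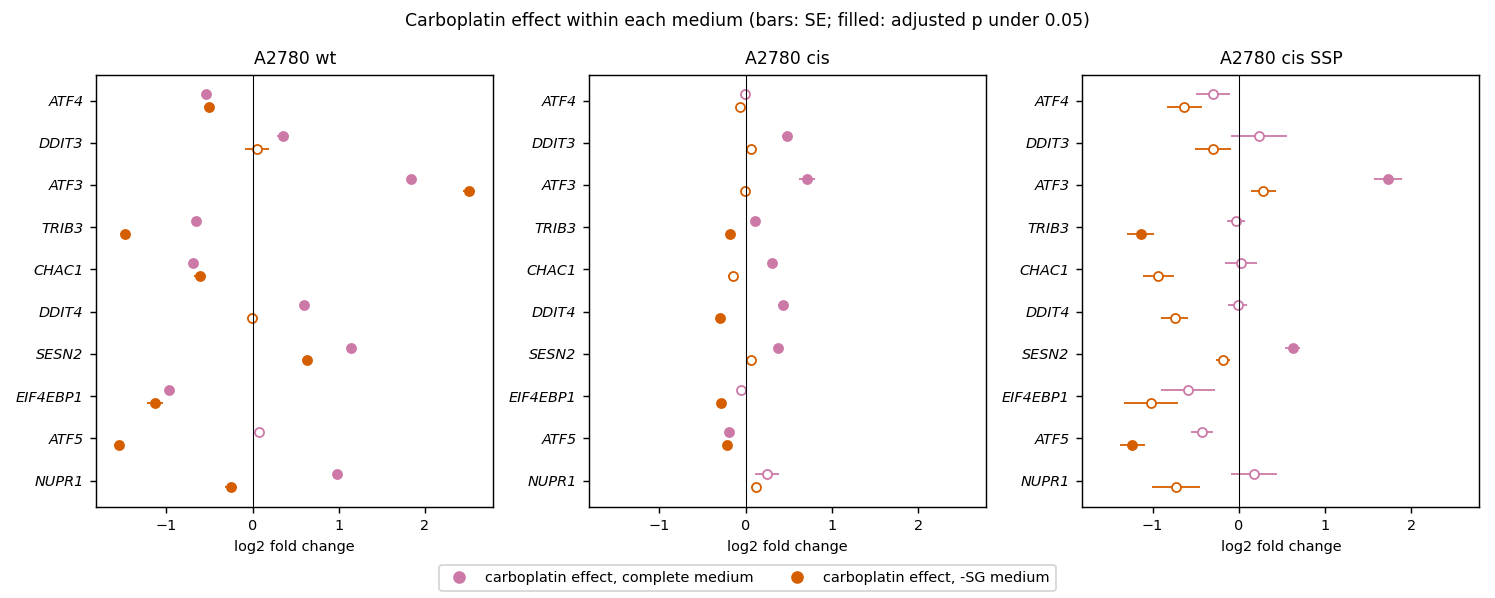
Log2 fold change with carboplatin (x axis) in complete medium and in medium without serine and glycine, for each gene in wt, cis and cis SSP cells; bars are SE and filled points adjusted p-values under 0.05. In wt cells ATF5 moves from 0.080 in complete medium to -1.55 in deprived medium.

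In cis SSP cells the outcome depended on libraries 25 and 32. ATF4 was at 415, 248 and 268 CPM in complete medium, the first value being that of library 25, and at 375, 600.3 and 372 CPM under deprivation, the second being that of library 32. EIF4EBP1 was at 252, 114 and 116 CPM and 203, 446 and 217 CPM in the same order. The values of these libraries were well above those of their partners. Both were also the highest of their conditions for DDIT3, TRIB3, CHAC1, DDIT4, ATF5 and NUPR1. They were not for ATF3, nor for SESN2, at 62.3, 65.5 and 63.8 CPM and 118, 114 and 113 CPM. With all libraries, none of the 10 genes was called under deprivation by edgeR, with 0.0218% of all genes called. An unadjusted p under 0.05 in edgeR was reached by 7 of them, and by 907 of 13736 genes in all. DESeq2 called 7 of them, and 105 of 28195 genes in all. The log2 fold changes from edgeR were positive for all 10 genes, from 0.54 (SE 0.271) for ATF4 to 1.83 (SE 0.382) for NUPR1. Without libraries 25 and 32, all 10 genes were called higher, with 35.9% of all genes called, and the log2 fold changes were close to those of all libraries, from 0.55 (SE 0.0322, adjusted p = 1.31e-12 by edgeR) for ATF4 to 1.82 (SE 0.0553, adjusted p = 2.07e-20) for NUPR1.

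Carboplatin raised 2 of 10 genes in cis SSP cells, with 2.72% of all genes called (1.97% higher and 0.749% lower, or 1.62% and 1.07% with total counts). These were ATF3, at 7.48, 6.79 and 6.65 CPM against 1.76, 2.17 and 2.46 CPM (log2 fold change 1.73, SE 0.163, adjusted p = 0.00783 by edgeR), and SESN2, at 96.5, 95.5 and 96.5 CPM against 62.3, 65.5 and 63.8 CPM (0.62, SE 0.0864, adjusted p = 0.0218). Both were called without library 25 as well, with 1.61 and 0.60, and DDIT3, CHAC1 and NUPR1 were then called higher and EIF4EBP1 and ATF5 lower, with 41.2% of all genes called. Leaving out 1 of the other libraries lowered the number of called genes from 2 to 0 or 1. In the direct comparison, 5 genes were lower with carboplatin than under deprivation (TRIB3, CHAC1, DDIT4, ATF5 and NUPR1), with 4.23% of all genes called (2.64% higher and 1.6% lower), and 8 without library 32, with 50.8% of all genes called. The values of TRIB3 show the gap, with 65.8, 66.6 and 64.5 CPM against 186, 261 and 188 CPM (log2 fold change -1.67, SE 0.152, adjusted p = 0.00641 by edgeR). The number fell to 0 when any library of cis SSP cells with carboplatin was left out, and to 2 without library 33, so it rests on the libraries kept. ATF3 did not pass this test, with -0.094 (SE 0.150, adjusted p = 0.769 by edgeR).

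**Figure D4:**
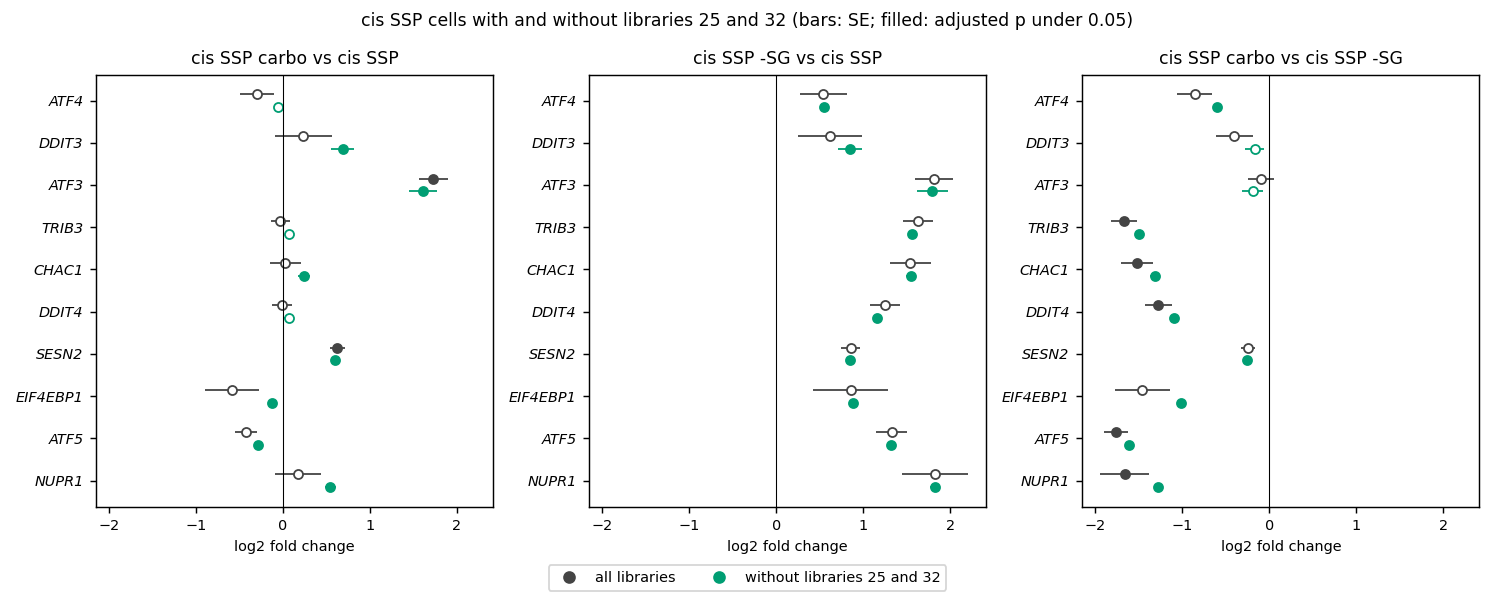
Log2 fold change (x axis) of each gene in cis SSP cells for carboplatin against control, deprivation against control and carboplatin against deprivation, with all libraries and without libraries 25 and 32; bars are SE and filled points adjusted p-values under 0.05. The deprivation values of NUPR1 are 1.83 with all libraries and 1.82 without them, but their SE shrinks from 0.382 to 0.0553.

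Compared with their parents in complete medium, cis SSP cells had 3 genes lower (TRIB3, DDIT3 and ATF3) and 3 higher (NUPR1, ATF5 and DDIT4), with 29.1% of all genes called. NUPR1 was at 51.6, 26.8 and 26.5 CPM, against 4.76, 4.54 and 5.89 CPM in cis cells (2.75, SE 0.294, adjusted p = 0.0013 by edgeR). DDIT3 was at 11.96, 5.13 and 5.68 CPM, the first library being library 25, against 23.5, 24.7 and 24.9 CPM (-1.72, SE 0.301, adjusted p = 0.00784 by edgeR). Without library 25 ATF4, CHAC1 and EIF4EBP1 were called lower as well, with -0.70, -0.68 and -0.16, and 65.4% of all genes were called. The cis SSP cells had been selected in medium without serine and glycine, so deprivation was not the same challenge for them as for cis cells. The comparison of both lines below cannot part this history from other differences between them. The response to deprivation was smaller in cis SSP than in cis cells for 4 genes, with 17.1% of all genes called (6.86% positive and 10.3% negative, or 5.19% and 12.9% with total counts), namely ATF3 (-1.31, SE 0.188), DDIT4 (-1.08, SE 0.196), ATF5 (-1.04, SE 0.196) and SESN2 (-0.95, SE 0.102). Without libraries 25 and 32 these 4 were called together with DDIT3 (-0.53) and NUPR1 (-1.21), and the response was larger in cis SSP cells for ATF4 (0.21, SE 0.0429, adjusted p = 5.89e-05 by edgeR), TRIB3 (0.19, SE 0.0492, adjusted p = 0.00116) and EIF4EBP1 (0.39, SE 0.0506, adjusted p = 8.84e-09), with 55.4% of all genes called. The response to carboplatin differed for ATF3 alone, larger in cis SSP cells by 1.02 (SE 0.167, adjusted p = 0.0262 by edgeR), with 0.506% of all genes called (0.423% positive and 0.0832% negative, or 0.229% and 0.0832% with total counts). Without library 25 DDIT4 (-0.36) and SESN2 (0.22) were called too, with 14.3% of all genes called.

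With deprivation and carboplatin together, 2 genes were lower in cis SSP cells than with deprivation alone (TRIB3 and ATF5), with 1.47% of all genes called (1.17% higher and 0.295% lower). ATF5 was at 129, 129 and 133 CPM with both and 271, 374 and 286 CPM with deprivation alone (-1.24, SE 0.143, adjusted p = 0.0198 by edgeR), and TRIB3 at 93.9, 96.3 and 94.8 CPM against 186, 261 and 188 CPM (-1.14, SE 0.155, adjusted p = 0.029). Without library 32 8 of the 10 were called lower, all but DDIT3 and ATF3, with 41.1% of all genes called. Without any other single library none was called. The effect of the drug differed between media for SESN2 (-0.80, SE 0.0944, adjusted p = 0.0198 by edgeR), with 0.0281% of all genes called, and without libraries 25 and 32 for all 10 genes, each with a more negative effect in deprived medium, with 15% of all genes called.

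Other genes of the pathway were read from lists. The list of ATF4 target genes held genes of amino acid synthesis, transport and tRNA charging, and others such as VLDLR, STC2 and GDF15. Of its 34 tested genes, carboplatin in wt cells raised 6 and lowered 27, and deprivation raised 32 and lowered 1. Of all genes 38.9% were called higher and 39% lower with carboplatin, and 24% and 25.1% under deprivation. The medians of their log2 fold changes were -0.57 and 0.27, against -0.00070 and 0.0085 over all genes. With carboplatin PHGDH (-1.41), the first enzyme of serine synthesis, VLDLR (-1.30), a lipoprotein receptor, and STC2 (-1.25), a secreted glycoprotein, fell most in this list, and GDF15 (4.28), a secreted stress cytokine that is also a p53 target, rose most. Under deprivation SLC7A11 (1.09), the cystine transporter, CTH (1.07), which makes cysteine, and SLC1A4 (0.98), a transporter of neutral amino acids, rose most. In cis cells deprivation raised 29 of the 34 and lowered 2, with a median of 0.46 and 37.6% of all genes higher and 37.4% lower. Carboplatin raised 6 and lowered 10 there, with a median of -0.011 and 20.1% of all genes called (1 of the list in 1 fit over the 36 libraries), and in the direct comparison 32 were lower with carboplatin and 2 higher (SHMT2 and ALDH18A1), with 36.7% and 36.6% of all genes.

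The p53 target genes were read in the same way. Carboplatin raised 18 of 19 tested in wt cells (median 1.54) and 17 of 18 in cis cells (median 0.54), and lowered 1 in wt cells (CCNG1) and none in cis cells, where 38.9% and 9.27% of all genes were called higher. In 1 fit over the 36 libraries 10 were called in cis cells. CDKN1A, the cell cycle inhibitor p21, led both, at 3.67 and 1.83. Deprivation raised 10 in wt cells (median 0.16) and 15 in cis cells (median 0.48), led in cis cells by GADD45A (1.81) and BBC3 (1.78), which are also known to respond to stress without p53, and 24% and 37.6% of all genes were called higher. The part of p53 in the levels of ATF3, SESN2 and DDIT4 was not tested.

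Of the kinases and factors around eIF2, PPP1R15A (GADD34), which brings a phosphatase to eIF2 and is itself a target of the response, rose with carboplatin in wt (0.85) and cis cells (0.14, not called in 1 fit over the 36 libraries) and under deprivation in wt (0.17) and cis cells (1.71). For the lists that follow, 77.8% of all genes were called with carboplatin in wt cells (38.9% higher and 39% lower) and 75% under deprivation in cis cells (37.6% and 37.4%). In the list around eIF2 as a whole carboplatin in wt cells raised 9 of 18 and lowered 7, and deprivation in cis cells raised 5 and lowered 13, among them EIF2AK2 (-0.56), the kinase PKR. Among bZIP partners, JUN (3.86) and FOSL1 (3.59), subunits of AP-1, rose most with carboplatin in wt cells, where JDP2 (-1.12) and CEBPG (-0.59), a dimer partner of ATF4, fell. Deprivation in cis cells raised 7 of 8 and lowered none, led by JUN (1.95) and CEBPG (1.29). The chaperones and factors of the unfolded protein response were split under deprivation in cis cells, 8 higher and 8 lower of 16, with SDF2L1 (-2.01), CRELD2 (-1.64) and MANF (-1.54), which serve folding in the endoplasmic reticulum, falling and the sensors ATF6 (1.32) and ERN1 (1.22) rising. Of the translation and mTORC1 partners, deprivation in cis cells raised 2 and lowered 8 of 12, and carboplatin in wt cells raised 8 and lowered 5 of 14, with SESN1 (0.74), the sestrin best known as a p53 target, rising most.

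Across the 12 condition means the 10 genes did not form a single pattern. As a description over 12 points that share lines and libraries, Pearson's r of log2(CPM + 1) was highest for ATF3 and SESN2 (0.90), TRIB3 and CHAC1 (0.83) and DDIT4 and SESN2 (0.83), and lowest for ATF3 and EIF4EBP1 (-0.49). ATF4 mRNA correlated with CHAC1 at 0.79 and with NUPR1 at -0.041. Among 10636 other genes with a mean of at least 5 CPM, those with the pattern most like TRIB3 were MTHFD1L (0.978), NIBAN1 (0.977) and RSL24D1 (0.976). CHAC1 was closest to SLC3A2 (0.951), ALDH1L2 (0.94) and GARS1 (0.924), EIF4EBP1 to JDP2 (0.976), ECI1 (0.964) and GPT2 (0.962), and ATF5 to SIAH1 (0.987), HRK (0.974) and EEF1A1 (0.956). ATF4 was closest to EPB41L5 (0.913), MARS1 (0.91) and PATJ (0.901), DDIT3 to RAB6A (0.981), PABPC1 (0.976) and NPIPB4 (0.974), and ATF3 to HECTD2 (0.973), TMEM140 (0.971) and UPP1 (0.965). For DDIT4 the closest were CHURC1 (0.957), SYF2 (0.953) and LYRM1 (0.952), for SESN2 ZNF655 (0.964), PIK3C3 (0.964) and CHRNA4 (0.96), and for NUPR1 ATXN3 (0.964), ZNF627 (0.959) and TPP1 (0.955).

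The order of the 12 condition means placed deprived cis cells, with or without carboplatin, at the top for DDIT3 (63.01 ± 0.126 CPM with both treatments, mean ± SD, n = 3), TRIB3 (499.9 ± 9.62 CPM), CHAC1 (95.00 ± 2.37 CPM), DDIT4 (142 ± 2.74 CPM) and ATF5 (417 ± 10.4 CPM). ATF4 was highest in untreated wt cells (522 ± 4.33 CPM), SESN2 in wt cells with carboplatin (218 ± 1.52 CPM) and ATF3 in wt cells with both treatments (94.8 ± 5.38 CPM). EIF4EBP1 (288 ± 136 CPM) and NUPR1 (123 ± 51.2 CPM) had their highest means in deprived cis SSP cells, where library 32 was far above the others. At the lower end stood cis SSP cells for ATF4, DDIT3, ATF3 and CHAC1, untreated cis cells for DDIT4, SESN2 and NUPR1, wt cells with carboplatin for TRIB3 and EIF4EBP1, and untreated wt cells for ATF5. Of the 11 neighbouring pairs in each order, the libraries overlapped in 3 for ATF5, in 5 for ATF3, TRIB3 and DDIT4, in 6 for SESN2, EIF4EBP1 and NUPR1, in 7 for CHAC1 and in 8 for ATF4 and DDIT3. Overlapping neighbours did not differ beyond the spread of all their libraries, which in cis SSP cells includes library 25 or 32, so that cis SSP cells with and without carboplatin overlapped for DDIT3, CHAC1 and NUPR1 although these were called different without library 25.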

How the data were processed

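RNA-seq counts of 36 A2780 libraries in 12 conditions were used. The authors deposited raw read counts per gene: after alignment to GRCh37.p13 by STAR and conversion by SAMtools, HTSeq counted reads over GENCODE v19 exons; the strand setting and the treatment of reads with several alignments are not given in the sources used here. The 3 rows that name no gene held 4.21% to 17.9% of counts per library on no feature and were left out. Samples were grouped by the labels, which give no replicate numbers within a condition. Within conditions, the mean chi-square per gene between 2 libraries was 1.20 to 123 over 36 pairs, so none was merged. Symbols and positions came from GENCODE v44 on GRCh37, which named 55538 of 57820 genes.

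Counts on genes (13074937 to 20441582 per library, which sets the counting error) were tested with edgeR 4.0.16 (R 4.3.3): the libraries of the conditions compared, TMM factors, filterByExpr, robust dispersion and robust quasi-likelihood F-tests, with Benjamini-Hochberg adjustment over all tested genes and calls under 0.05. There were 14 comparisons of conditions and 7 interactions, those of line the response of the line named first minus that of the other, those of medium the carboplatin response without serine and glycine minus that in complete medium. The SE is the absolute log2 fold change divided by the square root of F. Alternatives were DESeq2 1.42.0 (which the study names), edgeR with its size factors or with total counts in place of TMM factors, no filter, at least 10 counts in every library, 1 fit over 36 libraries, an added limit of 1 on the absolute log2 fold change, each library left out in turn, and libraries 25 and 32, or 23 and 24, left out together. The tests were tried on simulated counts. All 10 members are named. Of the other lists, at most 3 called genes a direction with the largest change and a mean of at least 50 counts are named, with others where the text says so. The genes most like a member are the 3 with the highest r. The members and lists were chosen with earlier results of these data known. Tables and plots were made with Python 3.11.15, pandas 2.3.3 and matplotlib 3.10.9.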

Additional observations from a re-analysis of the deposited data

Results flagged for a closer look

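The results listed here are those in which the effect of the same treatment differed between lines or media by a test of the difference itself, an interaction term in edgeR's quasi-likelihood test with adjusted p-values under 0.05 over all genes. Each value is a difference of 2 log2 fold changes.

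For deprivation, cis minus wt cells, the differences were 0.42 for ATF4, 1.02 for DDIT3, 3.51 for ATF3, 0.51 for TRIB3, 1.52 for CHAC1, 1.60 for DDIT4, 1.38 for SESN2, 0.30 for EIF4EBP1, 0.55 for ATF5 and 1.85 for NUPR1. All were positive. For carboplatin, cis minus wt cells, they were 0.54 for ATF4, 0.76 for TRIB3, 1.01 for CHAC1 and 0.92 for EIF4EBP1 on one side, and -1.12 for ATF3, -0.76 for SESN2, -0.26 for ATF5 and -0.73 for NUPR1 on the other.

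Between cis SSP and cis cells the deprivation effect differed by -1.31 for ATF3, -1.08 for DDIT4, -0.95 for SESN2 and -1.04 for ATF5, and the carboplatin effect by 1.02 for ATF3. With single libraries removed in turn, the last stayed under the threshold in 2 of 12 fits (without library 25 and without library 27), and it did so without libraries 25 and 32. The medium effect on SESN2 in cis SSP cells, given next, was also called in 2 of 12. Unlike cis cells, cis SSP cells had been selected in the deprived medium.

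Between media, the carboplatin effect in deprived minus complete medium differed in wt cells by 0.66 for ATF3, -0.83 for TRIB3, -0.61 for DDIT4, -0.52 for SESN2, -1.64 for ATF5 and -1.24 for NUPR1. In cis cells it differed by -0.40 for DDIT3, -0.71 for ATF3, -0.29 for TRIB3, -0.45 for CHAC1, -0.72 for DDIT4, -0.31 for SESN2 and -0.23 for EIF4EBP1, and in cis SSP cells by -0.80 for SESN2. ATF3 thus had differences of opposite sign in wt and cis cells, and whether these differed from each other was not tested.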

How the results depend on the processing

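No paired analysis was possible because the labels give no replicate numbers within a condition. DESeq2 size factors in edgeR left 207 values of members on the same side of the threshold with the same sign, total counts 203, no filter 205, at least 10 counts 205, DESeq2 190 and 1 fit over the 36 libraries 151. No called value changed sign under any alternative. What moved was mostly the number of called members in cis SSP cells, where the cause was not tested beyond leaving out libraries.

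When the log2 fold change also had to reach 1 in absolute size, the called members were 2 for carboplatin and 2 for deprivation in wt cells, 4 for the direct comparison and 4 for both treatments against deprivation there, 0 for carboplatin and 0 for both treatments against deprivation in cis cells, 1 for carboplatin in cis SSP cells, 4 between cis and wt cells, 2, 0 and 0 for the medium interaction in wt, cis and cis SSP cells, and 2 and 6 for the interaction of cis minus wt cells with carboplatin and with deprivation. In 1 fit over 36 libraries they were 3 for carboplatin in cis cells, 0 for both treatments against deprivation in cis cells, 4 for carboplatin, 9 for deprivation, 8 for the direct comparison and 8 for both treatments against deprivation in cis SSP cells, and 3 and 6 for the medium interaction in cis and cis SSP cells. The share of all genes that met the added limit of 1 was not counted. The 1 fit called 401 and 1141 of 16677 genes for the comparisons in cis cells just named. In cis SSP cells it called 3089, 1532, 3782 and 2860, in the order above. For the medium interactions it called 112 and 204. DESeq2 called 7 members for deprivation and 5 for both treatments against deprivation in cis SSP cells and 4 for their medium interaction. Of all genes it called 105 of 28195, 576 of 28210 and 62 of 31178 there. Without a filter 1 member was called for carboplatin in cis SSP cells and 0 for their medium interaction. Of all genes 342 of 28738 and 1 of 31178 were called there. With total counts 0 members were called for that interaction and 0 for cis SSP minus cis cells with carboplatin. Of all genes 3 of 14231 and 45 of 14428 were called there. Without libraries 25 and 32 the called members in cis SSP cells were 7 for carboplatin, 10 for deprivation and 8 for the direct comparison. They were 8 for both treatments against deprivation and 10 for the medium interaction. For cis SSP minus cis cells they were 3 with carboplatin and 9 (6 of them lower, 3 higher) with deprivation. In the same order 41.2%, 35.9%, 50.8%, 41.1%, 15%, 14.3% and 55.4% of all genes were called. Leaving out each library in turn gave 0 to 7 called members for carboplatin in cis SSP cells. It gave 0 to 8 for the direct comparison and 0 to 8 for both treatments against deprivation there. The medium interaction of these cells had 0 to 3, and cis SSP minus cis cells with carboplatin 0 to 3. Shares of all genes in these fits are not given here.

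Signs turned only for uncalled values. DDIT3 between carboplatin and deprivation in wt cells was 0.0024 with DESeq2 size factors and 0.0030 with at least 10 counts, DDIT4 for both treatments against deprivation in wt cells was 0.010 and 0.0029, and ATF3 for the same in cis cells was 0.00090 with at least 10 counts and 0.023 with total counts. For carboplatin in cis SSP cells CHAC1 was -0.028 with total counts and -0.0082 in 1 fit, and TRIB3 0.065 and DDIT4 0.068 without library 25. The medium interaction of ATF5 in cis cells was 0.010 with total counts and 0.053 without libraries 23 and 24. Without library 25 EIF4EBP1 between cis SSP and cis cells was -0.16, then called, and the carboplatin difference of cis SSP minus cis cells was 0.22 for DDIT3 and 0.30 for NUPR1.

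Single libraries left out turned further uncalled values, over ranges of -0.050 to 0.012 (DDIT3, carboplatin against deprivation, wt), -0.11 to 0.20 (DDIT3) and -0.070 to 0.035 (DDIT4) (both treatments against deprivation, wt), -0.025 to 0.0066 (ATF4, carboplatin, cis), -0.018 to 0.0086 (ATF3, both treatments against deprivation, cis), and, in cis SSP cells, -0.091 to 0.065 (TRIB3), -0.089 to 0.24 (CHAC1) and -0.093 to 0.068 (DDIT4) for carboplatin and -0.19 to 0.030 (ATF3) for carboplatin against deprivation. They were -0.16 to 0.45 for EIF4EBP1 between cis SSP and cis cells, -0.028 to 0.060 (ATF4, wt) and -0.85 to 0.022 (EIF4EBP1, cis SSP) for the medium interaction, and, for cis SSP minus cis cells, -0.43 to 0.22 (DDIT3) and -0.22 to 0.30 (NUPR1) with carboplatin and -0.043 to 0.48 (ATF4), -0.094 to 0.34 (CHAC1) and -0.075 to 0.86 (EIF4EBP1) with deprivation.

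Over all genes, the number called for carboplatin in cis cells was 2702 by edgeR, 1349 by DESeq2 and 401 in 1 fit over the 36 libraries, and for deprivation in cis SSP cells 3, 105 and 1532. Low counts limit ATF3 and DDIT3 in cis SSP cells, with 24 and 85 counts in their lowest libraries.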
